A study of Mus musculus with 44 samples.

Results

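The transcripts described here encode kinases and phosphatases that drive entry into and exit from meiotic and mitotic M phase, and 1 inhibitor of the anaphase-promoting complex. The 10 members were chosen by name as *Mos*, *Cdk1*, *Wee1*, *Wee2*, *Cdc25a*, *Cdc25b*, *Cdc25c*, *Plk1*, *Aurka* and *Fbxo43*. All 10 were found among the 35269 genes of the deposited table, each as 1 row, and all 10 passed the filter on low values that left 16412 genes for testing. *Fbxo43* (also called Emi2) is neither a kinase nor a phosphatase, and is kept here because it acts beside *Mos* in the oocyte.

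Single-embryo RNA-seq covered 44 C57Bl/6 mouse embryos at the two-cell stage, obtained by natural mating, from 6 litters. The WT group held 14 Dppa2/4+/+ embryos from control females crossed with Dppa2/4+/+ males (litters of 10 and 4). The HET1 group held 15 Dppa2/4+/- embryos from maternal conditional knockout (cKO) females crossed with Dppa2/4+/+ males (litters of 7 and 8). The cKO females crossed with Dppa2/4+/- males gave 5 Dppa2/4+/- embryos, the HET2 group (4 and 1 per litter), and 10 Dppa2/4-/- embryos, the HOM group (3 and 7 per litter). In the cKO females both genes were removed together in the growing oocyte by a Cre driven by the oocyte promoter of *Zp3*, so that HET1, HET2 and HOM embryos share the loss of the maternal store. HET1 and HET2 embryos have the same genotype and differ in the genotype of their sires, and HOM embryos lack a functional paternal allele as well. The authors told HET2 from HOM embryos by their *Dppa2* and *Dppa4* transcripts, so the level of these genes in the 2 groups is not independent of the labels.

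The embryos were sequenced to between 247667 and 3163026 total reads, with a median of 1770010 in WT and 528166 in HET1 embryos. HET2 and HOM embryos came from the same 2 litters, whereas the litters of WT and HET1 embryos belong to a single group, where litter and genotype cannot be told apart. Relative to WT, *Dppa2* fell by 6.57 and *Dppa4* by 5.25 on the log2 scale in HOM embryos, with no overlap of the 10 HOM and 14 WT embryos. Sperm markers were nearly absent (4 of 6, *Akap4*, *Odf1*, *Tnp1* and *Tnp2*, had no read in any embryo). The 10 cumulus and granulosa markers summed to between 0 and 17.7 RPM with *Fshr* and *Fst* at 0 reads, against 266 to 2102 RPM for the 12 two-cell markers and 359 to 3305 RPM for the 10 markers of the oocyte store. Each library was 1 whole embryo scaled to its own reads, so that fewer cells holding a transcript and less transcript per cell cannot be told apart.

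M phase is driven by Cdk1, a kinase that works when bound to a cyclin. Wee1 and its oocyte paralogue Wee2 phosphorylate and restrain Cdk1, and the phosphatases Cdc25a, Cdc25b and Cdc25c remove that phosphate. Plk1 and Aurka promote entry into mitosis and spindle assembly, while Mos, an activator of the MAP kinase pathway, and Fbxo43 hold the mature egg in metaphase of the second meiotic division. The two-cell mouse embryo inherits stored oocyte mRNA, much of which is degraded as the embryonic genome is switched on, and translation of stored mRNAs in the oocyte is known to depend on short elements near the 3′ end and on the length of the poly(A) tail.

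The last stretch of the transcript is therefore shown for the paralogues Wee1 and Wee2 and for the oocyte-arrest genes Mos and Fbxo43. Each window is 30 bases, 5′ to 3′, read from the GENCODE transcript sequences of GRCm38. Capitals mark the polyadenylation signals AATAAA and ATTAAA and the elements TTTTAT and TTTTAAT, which in RNA are forms of the cytoplasmic polyadenylation element.
Mos (chr4:3870669-3870698, reverse strand): actagggcatatttttaggaAATAAAgtta
Wee1 (chr7:110143239-110143268, forward strand): ttattaacattgtctggtgtATTAAAagtc
Wee2 (chr6:40466768-40466797, forward strand): TTTTAATccagatcattgtaAATAAAgatt
Fbxo43 (chr15:36150076-36150105, reverse strand): ggttaaaATTAAAactaataATTAAAttta

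All 4 windows lie in the last exon of their transcript, in the 3′ untranslated region. Searched in the last 100 bases on the transcript strand, TTTTAT was found in 12.8% and TTTTAAT in 4.6% of 21819 annotated genes, with 16.4% holding at least 1 of the 2. Among the 10 members, *Wee2* held both, each 1 time. *Aurka* held TTTTAT 1 time, and no other member held these letters in that stretch. *Wee2* holds its TTTTAAT 39 bases before the transcript end and its TTTTAT 12 bases before the end, partly outside the window shown. A signal of either kind was present in 74.1% of all genes and in 9 of the 10 members, *Aurka* being the one without. A match of letters is a description and not a mapped site, and the libraries were made from mRNA captured on oligo-dT beads, so that a change in tail length and a change in transcript number cannot be told apart.

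The genes lie on 8 chromosomes and all are protein-coding in GENCODE (GRCm38). *Mos*, on chromosome 4 from 3870657 to 3872105, is a single exon of 1449 bp. *Wee2* (chromosome 6, 40439088 to 40466813) and *Wee1* (chromosome 7, 110122046 to 110143286) have 12 and 11 exons in the transcript used. Reads were counted without strand, and exons of *Cdc25c* share 623 bp with *Gm3550* on the opposite strand, those of *Plk1* share 156 bp with *Gm44985* and those of *Cdc25b* share 92 bp with *Spef1*. The counts of these 3 members may hold reads of their partners. The mean level of the partners in WT and HOM embryos was 2.23 and 3.92 log2 RPM for *Gm3550* and 1.93 and 2.55 for *Gm44985*, and *Spef1* did not exceed 1.86 in any embryo, against 6.50 and 7.22 for *Cdc25c*, 5.40 and 6.76 for *Plk1* and 2.58 and 2.67 for *Cdc25b*, all with low values raised to 1.86.

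Abundance differed widely between the members. Scaled to the length of all annotated exons, in RPM per kb, the median over the 14 WT embryos was highest for *Cdk1*, at 57.4 (mean 54.5 ± 19.6 SD). *Wee2* followed at 33.0 (36.8 ± 25.1), then *Aurka* at 27.0 (42.6 ± 28.4), *Plk1* at 23.5 (24.8 ± 17.2) and *Cdc25c* at 23.5 (21.5 ± 9.48). Below them came *Wee1* at 11.8 (14.5 ± 7.39) and *Fbxo43* at 8.71 (11.4 ± 7.58). *Cdc25a*, *Cdc25b* and *Mos* formed the low end, with medians of 1.94, 1.16 and 0.109 RPM per kb.

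Between neighbours in this order, the mean difference within an embryo exceeded its own SD only from *Fbxo43* to *Cdc25a* (9.44 ± 7.09 SD RPM per kb, n = 14 embryos, *Fbxo43* higher in 13). All other neighbours differed by less than 1 SD. *Cdc25c* rose from the fifth to the second place when levels were divided by the longest transcript, so its place depends on the exons counted. In the HOM embryos *Aurka* had the highest median, 91.7 RPM per kb (mean 87.0 ± 39.5, n = 10), and *Wee2* was the fifth with 28.6. Over all HET1 and HET2 embryos *Wee2* had the highest median, 70.1 and 107 RPM per kb. These places rest on litter. *Wee2* had the highest median in HET1 litter 2 (147), in the HET2 and HOM embryos of litter 1 (109 and 107) and in WT litter 2 (44.6). It was the fifth in HET1 litter 1 (20.5) and in the HET2 and HOM embryos of litter 2 (15.9 and 20.5), and the fourth in WT litter 1 (25.2).

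**Figure D1:**
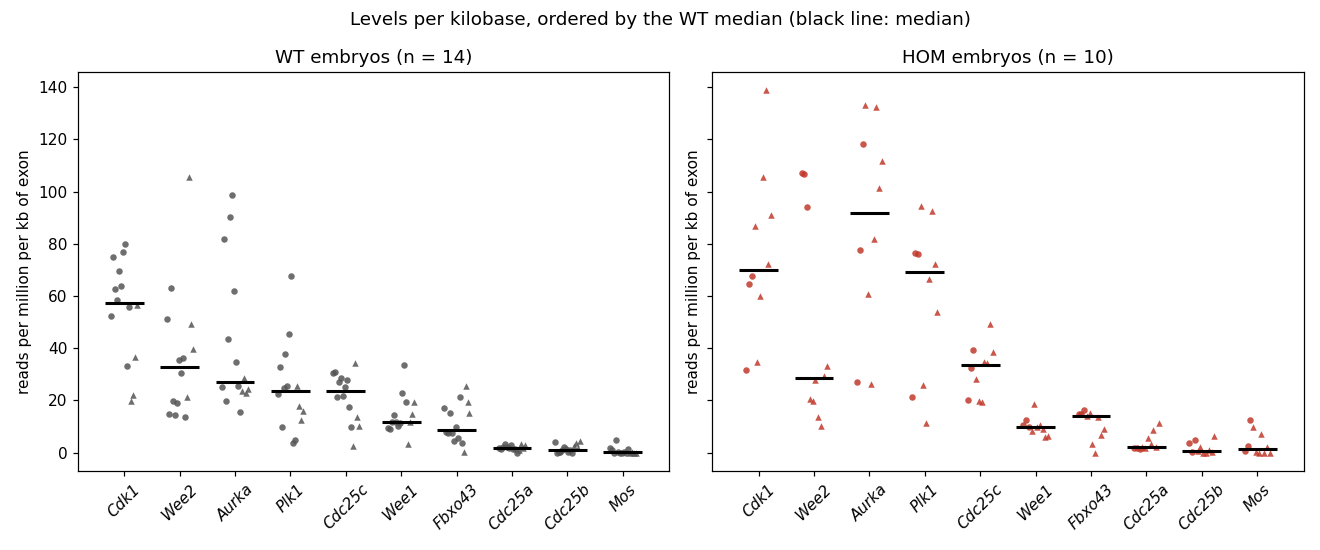
Levels of the 10 transcripts in RPM per kb of exon in WT (left, 14 embryos) and HOM embryos (right, 10 embryos), ordered by the WT median; circles and triangles are embryos of litter 1 and litter 2 of the cross and the black lines are medians. *Cdk1*, *Wee2*, *Aurka*, *Plk1* and *Cdc25c* form the upper part, *Cdc25a*, *Cdc25b* and *Mos* stay near 0, and the HOM embryos fall apart by litter for *Wee2*.

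All further levels are log2 RPM, with values under 1.86 raised to 1.86, which is the value that a gene with no read takes in the shallowest embryo. Differences are limma estimates with their SE over all 16412 genes tested, adjusted by the method of Benjamini and Hochberg.

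The first question was whether loss of maternal, or of maternal and zygotic, Dppa2/4 moved these transcripts. By limma, 0 of the 10 members were called in HOM against WT embryos, where 0.0183% of all genes were called, with 5 members at an unadjusted p under 0.05 (14.5% of all genes). In HET1 against WT embryos 0 of 10 were called against a background of 4.54%, with 1 member under 0.05 before adjustment (18.4% of all genes). In HET2 against WT embryos the count was again 0 of 10, with a background of 0.0305% and 1 member under 0.05 before adjustment (8.52% of all genes). Limma voom on the recovered reads also called 0 of 10 in each of the 3 comparisons, beside 0.0548% of all genes in HOM, 15.4% in HET1 and 0.0487% in HET2.

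In HOM embryos 8 of 10 members had a positive difference with a median of 0.49, beside a median of 0.09 over all genes tested. In HET1 embryos 9 of 10 were positive with a median of 0.26 (all genes 0.05), and in HET2 embryos 8 of 10 with a median of 0.44 (all genes 0.00). The 3 comparisons share the WT embryos, so their directions are not independent of each other. When each embryo was centred on its own median, the median over all genes in HOM against WT moved from 0.09 to -0.22, and from 0.05 to -0.13 in HET1 embryos. The positive members were then 6 of 10 in HOM, 6 of 10 in HET1 and 8 of 10 in HET2 embryos, with *Cdc25b* and *Wee2* turning negative in HOM embryos and *Mos*, *Cdk1* and *Cdc25c* in HET1 embryos. The median over the members was then 0.18 in HOM, 0.08 in HET1 and 0.48 in HET2 embryos.

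**Figure D2:**
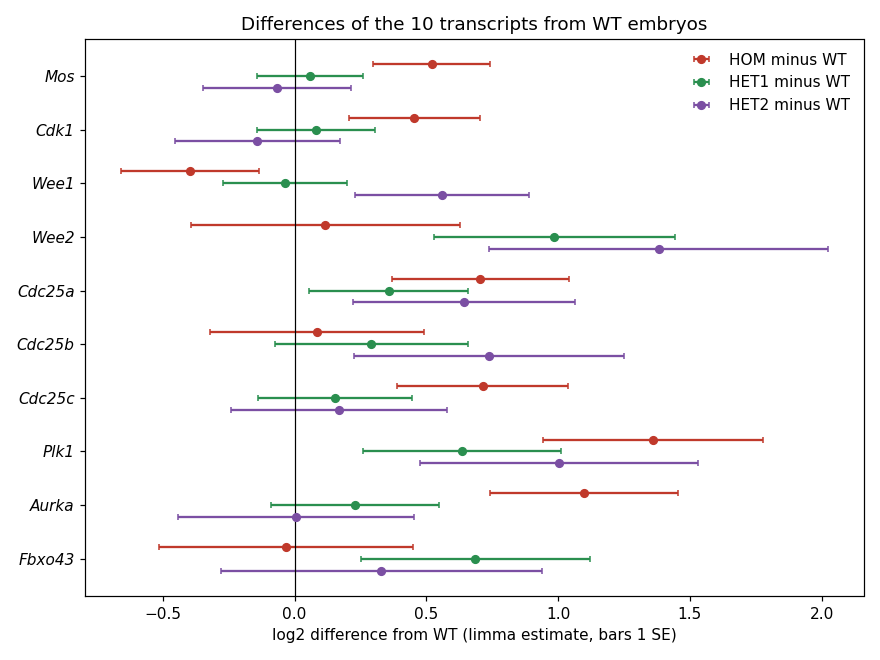
Log2 difference from WT (horizontal axis, limma estimate) of the 10 transcripts for HOM (red), HET1 (green) and HET2 embryos (purple), with bars of 1 SE. *Plk1* at 1.36 and *Aurka* at 1.10 in HOM embryos and *Wee2* at 1.38 in HET2 embryos lie farthest to the right, and none of the 30 estimates passed the adjusted threshold.

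*Plk1*, the polo-like kinase that promotes mitotic entry and spindle assembly, had the largest difference in HOM embryos. Its level ranged from 3.05 to 7.22 (median 5.69) in WT, from 4.25 to 7.44 (6.25) in HET1 and from 4.66 to 7.70 (7.25) in HOM embryos. The 5 HET2 embryos stood at 5.61, 5.81, 5.85, 7.36 and 7.38. Of the 10 HOM embryos 5 lay above the highest WT embryo, but the ranges overlapped. The difference from WT was 1.36 ± 0.42 (SE, limma adjusted p = 0.144) in HOM, 0.64 ± 0.38 (adjusted p = 0.374) in HET1 and 1.00 ± 0.53 (adjusted p = 0.613) in HET2 embryos. *Gm44985*, whose exons overlap those of *Plk1*, differed by 0.62 ± 0.20 in the same HOM comparison (limma adjusted p = 0.161), and its part in the *Plk1* value was not tested.

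*Aurka*, the spindle-pole kinase Aurora A, was placed alike in HOM embryos but not in the heterozygous groups. It ranged from 5.30 to 7.96 (median 6.09) in WT, from 4.99 to 7.90 (6.72) in HET1 and from 6.06 to 8.40 (7.85) in HOM embryos, with HET2 embryos at 5.34, 6.05, 6.50, 7.15 and 7.42. The upper 5 HOM embryos exceeded every WT embryo and the lower 7 WT embryos lay under every HOM embryo. HOM minus WT was 1.10 ± 0.36 (limma adjusted p = 0.161), whereas HET1 minus WT was 0.23 ± 0.32 and HET2 minus WT 0.00 ± 0.45.

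*Plk1* and *Aurka* varied together from embryo to embryo, with a Pearson r of 0.76 over the 44 embryos and 0.79 once the mean of each group in each litter was removed. This was the closest pair among the 10 members, and all points share library depth, with r of -0.30 and -0.28 between log2 total reads and *Plk1* and *Aurka*.

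*Cdk1*, the M-phase kinase itself, was read in every embryo, with 63 to 1084 reads. It ranged from 6.61 to 8.63 (median 8.15) in WT, from 7.08 to 9.19 (7.99) in HET1 and from 7.28 to 9.42 (8.43) in HOM embryos, and stood at 7.47, 7.66, 7.76, 7.90 and 8.29 in HET2 embryos. The groups overlapped throughout. The differences from WT were 0.45 ± 0.25 in HOM (limma adjusted p = 0.399), 0.08 ± 0.22 in HET1 and -0.14 ± 0.31 in HET2 embryos. In the alternatives run, HOM minus WT ran from 0.04 to 1.16. HET1 minus WT ran from -0.27 to 0.78 (opposite in sign in 6 of 15) and HET2 minus WT from -0.42 to 0.56 (3 of 20).

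**Figure D3:**
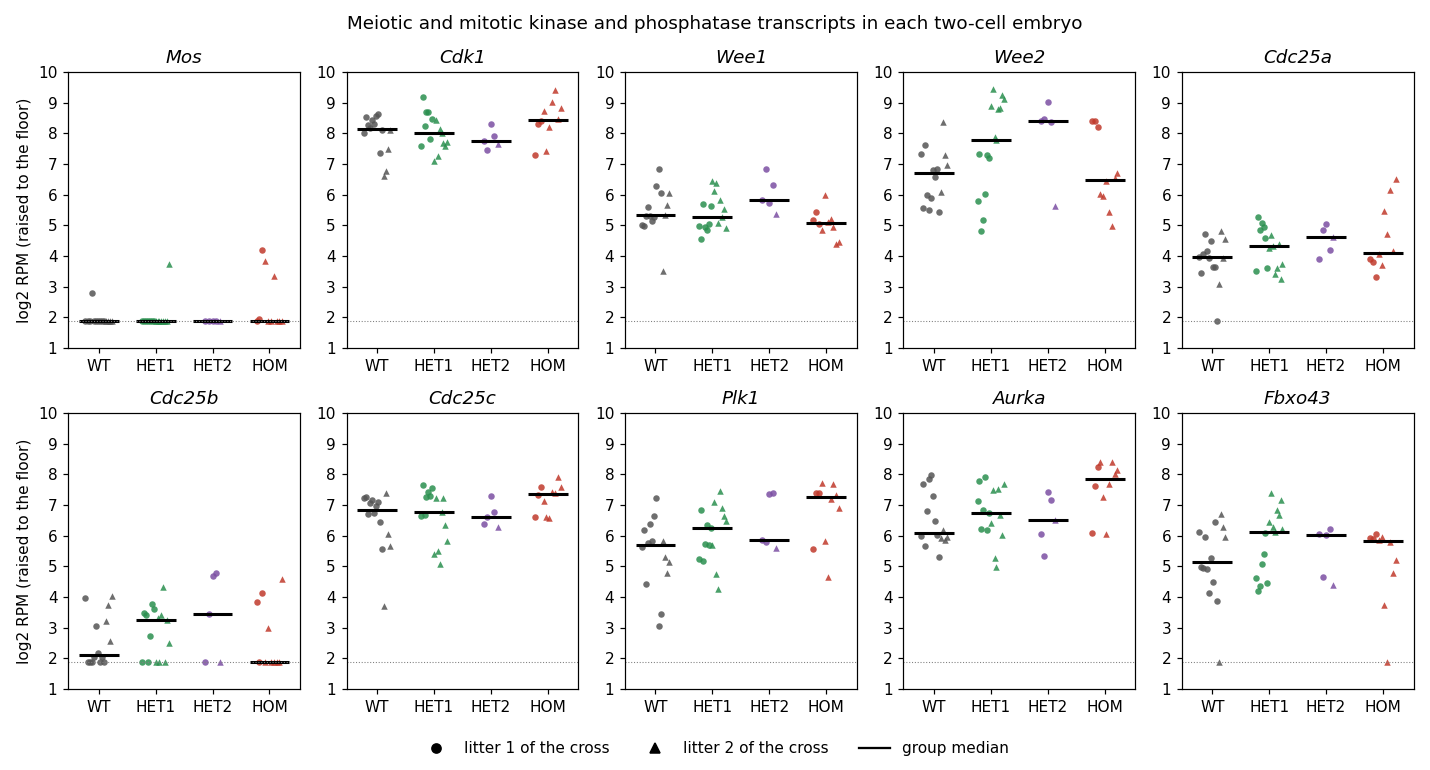
Level of each of the 10 transcripts (log2 RPM, raised to the floor of 1.86 marked by the dotted line) in the 44 embryos by group; circles are litter 1 and triangles litter 2 of the cross, and the black lines are group medians. The 4 groups overlap in every panel, *Mos* sits at the floor in most embryos, and *Wee2* separates circles from triangles in HET1, HET2 and HOM embryos.

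Of the Cdk1-inhibitory kinases, *Wee1* ranged from 3.49 to 6.84 (median 5.33) in WT, from 4.55 to 6.44 (5.28) in HET1 and from 4.40 to 5.99 (5.07) in HOM embryos. HET2 embryos stood at 5.36, 5.73, 5.82, 6.32 and 6.83, so that 2 of the 5 were above the highest HOM embryo. HOM minus WT was -0.40 ± 0.26 (limma adjusted p = 0.482), HET1 minus WT -0.04 ± 0.24 and HET2 minus WT 0.56 ± 0.33.

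*Wee2*, the oocyte form, had the widest differences in the heterozygous groups. It ranged from 5.43 to 8.37 (median 6.69) in WT, from 4.82 to 9.44 (7.78) in HET1 and from 4.98 to 8.40 (6.49) in HOM embryos, and HET2 embryos stood at 5.64, 8.36, 8.39, 8.45 and 9.01. HET1 minus WT was 0.99 ± 0.46 (limma adjusted p = 0.230), HET2 minus WT 1.38 ± 0.64 (adjusted p = 0.550) and HOM minus WT 0.12 ± 0.51. These group values average over litters that differed, as described below, and none kept its sign in all alternatives run. In these, HOM minus WT ran from -0.58 to 1.74 (opposite in sign in 4 of 15), HET1 minus WT from -0.36 to 2.16 (1 of 15) and HET2 minus WT from -0.95 to 1.96 (1 of 20). Without HET1 litter 1, 2 members were called in HET1 against WT embryos, *Wee2* at 2.16 (limma adjusted p = 0.00075) and *Fbxo43* at 1.50 (adjusted p = 0.0353), beside 14.3% of all genes in that fit. Without HET1 litter 2 both turned negative, at -0.36 and -0.25.

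Among the Cdk1-activating phosphatases, *Cdc25c* ranged from 3.72 to 7.40 (median 6.85) in WT and from 6.57 to 7.93 (7.36) in HOM embryos, where 5 of 10 lay above the highest WT embryo. The difference was 0.71 ± 0.33 (limma adjusted p = 0.304). Its size depended on the litters, with means of 6.82 and 5.71 in WT litters 1 and 2. In the 15 alternatives run it ranged from 0.40 to 1.51. *Gm3550* on the opposite strand differed by 1.70 ± 0.37 in the same direction (adjusted p = 0.0847), and its part in the *Cdc25c* value was not tested.

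*Cdc25a* ranged from 1.86 (no read) to 4.80 (median 3.96) in WT and from 3.32 to 6.51 (4.11) in HOM embryos, a difference of 0.70 ± 0.33 (limma adjusted p = 0.327) that rests on litter 2 of the HOM embryos and was -0.21 without it. *Cdc25b*, the phosphatase that starts meiotic resumption in mouse oocytes, gave at most 47 reads and none in 8 of 44 embryos. With a median of 2.11 in WT, 3.26 in HET1 and 1.87 in HOM embryos, it differed from WT by 0.09 ± 0.41 in HOM, 0.29 ± 0.37 in HET1 and 0.74 ± 0.51 in HET2 embryos, which at this depth is not separable from 0.

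*Mos*, the kinase of the metaphase arrest, was close to its detection limit. It gave no read in 26 of 44 embryos and fewer than 3 reads in 34, and the highest embryo had 22 reads. At least 3 reads were present in 5 of 10 HOM embryos (3, 4, 5, 6 and 22 reads), in 3 of 14 WT embryos (3, 8 and 15), in 1 of 15 HET1 embryos (7) and in 1 of 5 HET2 embryos (3). Per kb this was a mean of 3.52 ± 4.65 RPM in HOM and 0.724 ± 1.33 in WT embryos, so that the SD exceeded the mean in both. HOM minus WT was 0.52 ± 0.22 (limma adjusted p = 0.274) after raising low values to the floor, which holds most embryos at the same value, and was 1.68 ± 0.68 by voom on the recovered reads (adjusted p = 0.192).

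*Fbxo43* ranged from 1.86 to 6.70 (median 5.13) in WT, from 4.21 to 7.39 (6.13) in HET1 and from 1.86 to 6.04 (5.81) in HOM embryos, with HET2 embryos at 4.38, 4.66, 6.01, 6.05 and 6.20. HOM minus WT was -0.03 ± 0.48 and HET1 minus WT 0.69 ± 0.43 (limma adjusted p = 0.413), neither of them beyond the spread.

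The comparison of HOM with HET2 embryos of the same litters asks about the paternal allele with the maternal loss held in common. By limma 0 of 10 members were called, against 0.0122% of all genes, with 1 member at an unadjusted p under 0.05 (4.36% of all genes) and 0 by voom. That member was *Wee1*, at -0.76 ± 0.29 (unadjusted p = 0.0226, adjusted p = 0.898). *Aurka* differed by 0.95 ± 0.53, *Plk1* by 0.50 ± 0.62, *Cdc25c* by 0.59 ± 0.28 and *Wee2* by -0.02 ± 0.29. With a single HET2 embryo in litter 2, the SE of the members ranged from 0.28 to 0.70, and differences of that order could not be told from 0.

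Litter separated the embryos more than genotype did for some of these transcripts. For *Wee2*, 73.2% of the variance over 44 embryos lay between the 6 litters and 16.2% between the 4 groups, beside medians of 19.4% and 8.74% over all genes tested. Of all genes tested, 99.6% had a share between litters at or below that of *Wee2*. *Cdk1* followed with 36.8% between litters, *Cdc25c* with 34.4% and *Fbxo43* with 33.4%, and *Mos* had the smallest share at 8.01%. For *Plk1* and *Aurka* the shares between groups, 21.4% and 21.0%, were about as large as those between litters, 21.4% and 21.5%. These shares are descriptions with no test.

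Between the HET1 litters, 3 of 10 members were called, beside 16.6% of all genes, and with 10 members this count does not set them apart from that background. *Wee2* stood at 4.82, 6.01 and 7.32 (lowest, median and highest of 7) in litter 1 and at 7.78, 8.85 and 9.44 in the 8 embryos of litter 2. The 2 litters did not overlap, and litter 2 was higher by 2.52 ± 0.38 (limma adjusted p = 1.34e-05). *Fbxo43* rose with it, from 4.21, 4.60 and 6.08 in litter 1 to 6.13, 6.55 and 7.39 in litter 2. Again the litters did not overlap, and the difference was 1.75 ± 0.54 (limma adjusted p = 0.0208).

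*Cdc25c* moved the other way, from 6.63, 7.31 and 7.64 in HET1 litter 1 to 5.08, 6.08 and 7.24 in litter 2. The litters overlapped, and the difference of -1.04 ± 0.36 passed narrowly (limma adjusted p = 0.0402). It was lost when embryos were centred on their median (-0.69, adjusted p = 0.0891), without the filter on low values (-1.04, adjusted p = 0.0605) and by voom (-1.11, adjusted p = 0.0585). *Cdk1* differed by -0.65 ± 0.26 (limma adjusted p = 0.0893). It was called in 1 of 8 alternatives, with log2 total reads as a covariate (-0.68, adjusted p = 0.0437). With embryos centred on their median it was -0.30 (adjusted p = 0.371). *Wee1* differed by 0.60 ± 0.32 (adjusted p = 0.209).

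**Figure D4:**
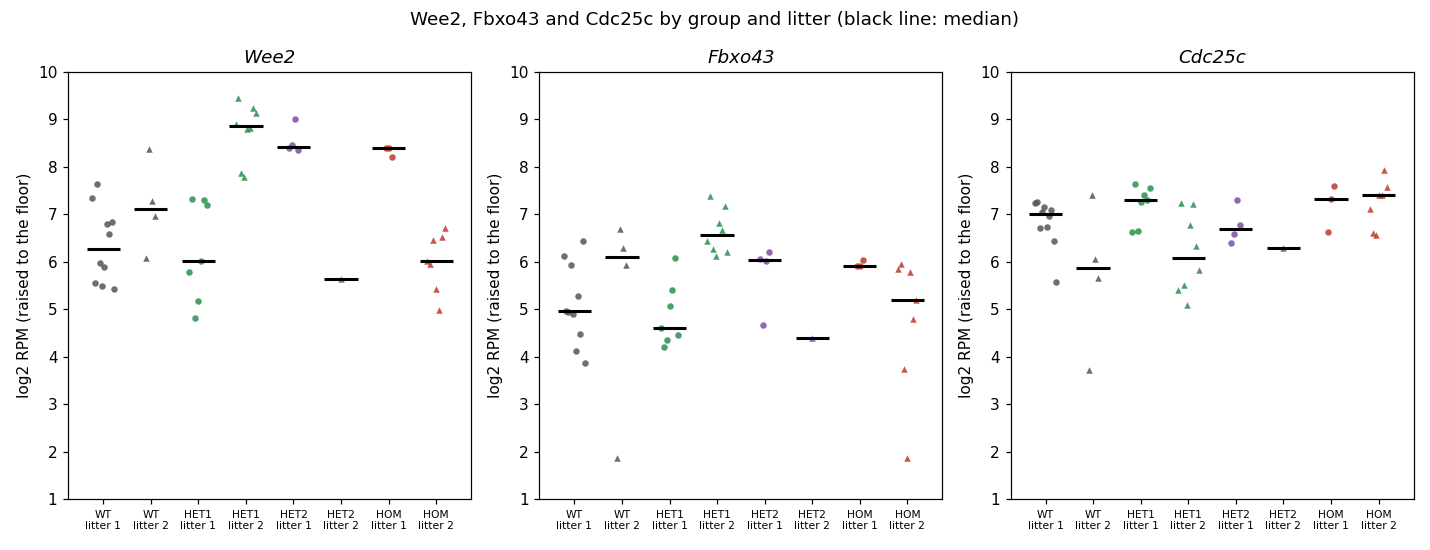
Levels of *Wee2*, *Fbxo43* and *Cdc25c* (vertical axis, log2 RPM raised to the floor of 1.86) in each embryo by group and litter; black lines are medians. *Wee2* is high in HET1 litter 2 (7.78 to 9.44) and in litter 1 of the cKO females with Dppa2/4+/- males (8.21 to 9.01 over HET2 and HOM embryos), and low in the other litter of each cross.

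Between the 2 litters of cKO females and Dppa2/4+/- males, 1 of 10 members was called, against 3.41% of all genes. This was *Wee2*, lower in litter 2 by 2.49 on the log2 scale (difference -2.49 ± 0.28, limma adjusted p = 0.00134, with genotype in the model). In litter 1 the HET2 embryos stood at 8.36, 8.39, 8.45 and 9.01 and the HOM embryos at 8.21, 8.39 and 8.40. In litter 2 the HET2 embryo stood at 5.64 and the 7 HOM embryos between 4.98 and 6.70 (median 6.01). The 7 embryos of litter 1 and the 8 of litter 2 did not overlap, and both genotypes were high in litter 1. *Fbxo43* differed by -1.25 ± 0.63 in the same direction (adjusted p = 0.316).

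Between the WT litters 0 of 10 members were called by limma, against 2.55% of all genes, with 3 members at an unadjusted p under 0.05 (14.8% of all genes). By voom, and with log2 total reads as a covariate, 1 was called, *Cdk1* in both, beside 5.5% and 2.88% of all genes in those fits. *Cdk1* stood at 6.61, 6.78, 7.49 and 8.12 in the 4 embryos of litter 2 and between 7.36 and 8.63 (median 8.28) in litter 1, a difference of -0.99 ± 0.30 (limma adjusted p = 0.0734). *Wee2* differed by 0.82 ± 0.44 (adjusted p = 0.394), with litters that overlapped.

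Marker levels, the *Dppa2* and *Dppa4* levels and the depth are given beside the *Wee2* result. The summed RPM of the 10 markers of the oocyte store was 1294 to 3114 (median 2561) in HET1 litter 2 and 566 to 1473 (909) in HET1 litter 1, and 1485 to 2573 (2162) against 478 to 1190 (920) in litters 1 and 2 of the cKO females with Dppa2/4+/- males. Of these 10, 2 were called higher in HET1 litter 2 (*Oosp1* and *H1foo*) and 2 lower in litter 2 of the other cross (*Oosp1* and *Bmp15*), and 0 the other way. Over the 10, the difference between the HET1 litters had a median of 0.50 and ran from -1.003 to 2.70. In the other cross the median was -1.12, with a range from -2.18 to 0.62. The markers of the store therefore did not all move the same way in either pair of litters. *Oosp1*, a secreted oocyte protein gene called in both, differed by 2.70 ± 0.36 between the HET1 litters and by -2.11 ± 0.33 between the other pair (limma adjusted p = 3.31e-06 and 0.00713). Of the 12 two-cell markers 6 were called higher and 0 lower in HET1 litter 2, and 0 higher and 3 lower in litter 2 of the other cross, beside 16.6% and 3.41% of all genes called in either direction. *Dppa2* and *Dppa4* were lower in HET1 litter 2, by -1.56 ± 0.29 and -1.79 ± 0.30 (limma adjusted p = 0.000179 and 7.34e-05). In the other cross they differed by 0.79 ± 0.49 and 0.21 ± 0.21, neither called (limma adjusted p = 0.407 and 0.658). Most embryos of that cross are HOM, where both genes lie near the floor in either litter, so this fit could show little. In the HET2 embryos of litter 1 *Dppa2* averaged 5.80 and *Dppa4* 5.05 (n = 4). The single HET2 embryo of litter 2 stood at 8.88 and 5.77. Total reads went opposite ways, being lower in the high-*Wee2* litter of HET1 embryos and higher in that of the other cross, with medians of 663861 and 524828 in HET1 litters 1 and 2, and 1108889 and 747523 in those of the other cross. The part of these in the *Wee2* result was not tested.

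The log2 ratio of *Wee1* to *Wee2*, the somatic to the oocyte form, was taken within each embryo. It was -1.13 ± 1.11 (SD, n = 14) in WT, -2.15 ± 1.41 in HET1, -1.96 ± 1.12 in HET2 and -1.65 ± 1.28 in HOM embryos, and was below 0 in 40 of 44 embryos. HET1 differed from WT by -1.02 (2-sided permutation test, p = 0.0404, adjusted p = 0.242 over the 6 ratio tests), HET2 by -0.82 (exact p = 0.176, adjusted p = 0.446) and HOM by -0.51 (permutation p = 0.297, adjusted p = 0.446). Within the cross with Dppa2/4+/- males, the HOM embryos stood at -3.11 ± 0.14 in litter 1 (n = 3) and -1.02 ± 0.96 in litter 2 (n = 7), and the HET1 litters at -1.13 ± 1.23 and -3.05 ± 0.84 (n = 7 and 8). The WT litters of 10 and 4 stood at -0.77 ± 0.98 and -2.04 ± 0.95 and overlapped. The HET1 litters overlapped as well, with -2.77 to 0.89 in litter 1 and -4.20 to -1.49 in litter 2. The HET1 difference was -0.12 without WT litter 1, 0.0012 without HET1 litter 2 and -1.92 without HET1 litter 1, and those of HET2 and HOM turned to 0.081 and 0.39 without WT litter 1. The ratio was not tested between litters.

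For *Cdc25a* to *Cdc25b* the log2 ratio was 1.29 ± 0.94 in WT, 1.36 ± 1.14 in HET1, 1.19 ± 1.33 in HET2 and 1.91 ± 1.56 in HOM embryos. The differences from WT were 0.07 in HET1, -0.10 in HET2 and 0.62 in HOM embryos (adjusted p = 0.862, 0.862 and 0.446 by the same permutation tests, exact for HET2). By litter the ratio was 1.53 ± 0.96 and 0.69 ± 0.66 in WT, 1.59 ± 1.01 and 1.15 ± 1.28 in HET1 and 0.39 ± 1.41 and 2.56 ± 1.16 in HOM embryos, and 0.81 ± 1.16 in the 4 HET2 embryos of litter 1 with 2.74 in the single one of litter 2. Each of the 3 differences changed sign when 1 litter was left out, to -0.14 in HET1 (without HET1 litter 1), 1.45 in HET2 (without litter 1 of its cross) and -0.90 in HOM embryos (without litter 2 of its cross). *Cdc25b* sits at or near the floor in many embryos, which holds this ratio down. The ratio is of RPM not scaled to length, and the annotated exons cover 8023 bp for *Cdc25a* and 3728 bp for *Cdc25b*. Per kb, *Cdc25a* was the higher in 8 of 14 WT embryos, with a mean difference of 0.36 ± 1.43 (SD) RPM per kb.

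**Figure D5:**
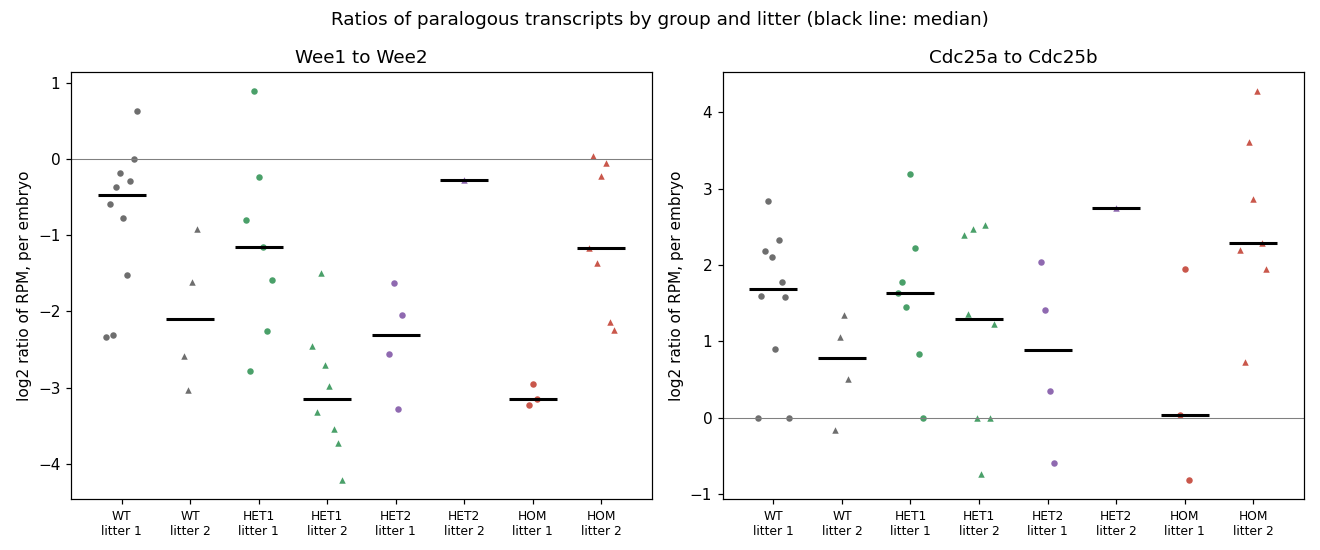
Log2 ratio of *Wee1* to *Wee2* (left) and of *Cdc25a* to *Cdc25b* (right) in each embryo by group and litter, with medians as black lines. The median *Wee1* to *Wee2* ratio is lower in HET1 litter 2 and in HOM litter 1 than in the other litter of each cross, and the HET1 litters overlap.

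The wider M-phase machinery was read from 68 genes in 5 lists, all of which were tested. Against WT, 0 of the 68 were called by limma in HOM and 0 in HET2 embryos, with 19 and 8 at an unadjusted p under 0.05, where 14.5% and 8.52% of all genes passed. In HET1 embryos 4 rose and 2 fell, 6 of 68 beside 4.54% of all genes. Over all 16412 genes the HET1 comparison gave 0 calls with litter as a random effect, with litter means as replicates or with log2 total reads as a covariate, so that none of these calls held there, and 6 without HET1 litter 2. Of 9 Cdk1 partners, *Cks1b* at 1.21 ± 0.31 and *Cks2* at 1.02 ± 0.29, small subunits that bind Cdk1, rose, and *Mnat1*, a cofactor of the Cdk-activating kinase, was lower at -1.35 ± 0.34 (limma adjusted p = 0.0168, 0.0316 and 0.0142). These rest mostly on HET1 litter 2. The means in HET1 litters 1 and 2 were 7.63 and 9.62 for *Cks1b* (WT 7.48) and 9.35 and 10.8 for *Cks2* (WT 9.10). For *Mnat1* they were 3.74 and 1.98 (WT 4.16). Of 17 other mitotic kinases and cofactors *Aurkc*, the germ-cell Aurora kinase, rose by 1.87 ± 0.36 (adjusted p = 0.00231). Of 20 subunits and regulators of the anaphase-promoting complex, *Ube2s*, its chain-elongating ubiquitin enzyme, rose by 1.98 ± 0.40 (adjusted p = 0.004) and the subunit *Cdc27* was lower at -0.71 ± 0.19 (adjusted p = 0.0254). The means in HET1 litters 1 and 2 were 5.39 and 6.17 for *Aurkc* (WT 3.94) and 6.40 and 7.61 for *Ube2s* (WT 5.07). For *Cdc27* they were 7.92 and 7.63 (WT 8.47). The 14 phosphatases of M-phase exit and the 8 genes of the Mos to MAP kinase arm gave 0 calls in HET1 embryos, with 3 and 2 genes at an unadjusted p under 0.05.

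The list medians in HOM against WT were 0.00 for the Cdk1 partners, 0.32 for the other kinases, -0.13 for the phosphatases, 0.16 for the MAP kinase arm and 0.54 for the anaphase-promoting complex, beside 0.09 over all genes tested. In the same order they were 0.18, 0.18, 0.00, 0.06 and 0.35 in HET1 embryos (all genes 0.05) and -0.15, 0.19, -0.18, 0.00 and 0.18 in HET2 embryos (all genes 0.00).

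Between the HET1 litters, 14 of the 68 were called, 7 higher and 7 lower in litter 2, beside 16.6% of all genes. *Cks1b* at 1.99, *Cks2* at 1.43, *Plk4*, the centriole kinase, at 1.36, the checkpoint kinase *Chek1* at 0.79 and *Mad2l1*, the spindle checkpoint protein, at 1.34 were higher. *Mnat1* at -1.76, *Anapc7* at -2.31, *Anapc15* at -1.10, *Chek2* at -1.38 and the phosphatase *Cdc14b* at -1.68 were lower. In the MAP kinase arm *Map2k1* was higher by 1.21 and *Map2k2* lower at -1.42. Between the litters of the cross with Dppa2/4+/- males 3 of the 68 were called beside 3.41% of all genes, and between the WT litters 2 beside 2.55%. In the first pair *Mnat1* at 1.57 and the cyclin *Ccnh* at 2.38 were higher in litter 2 and *Chek1* at -0.79 lower, and in the second *Ppp2r5c* was higher by 0.81 and *Ppp1ca* lower at -1.89.

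The genes whose levels followed the members most closely over the 44 embryos are given as a description, since the points share libraries and depth. *Wee2* was followed most closely, by *Btg4*, an adaptor for the decay of maternal mRNA, with a Pearson r of 0.95, and by *Gm11381* with 0.94. *Cdc25c* was followed by *Dhx8* (0.88) and *Baz2a* (0.87), *Plk1* by *Kifc1*, a spindle motor (0.85), and *Glul* (0.81), and *Aurka* by *Rexo1* (0.84) and *4930432K21Rik* (0.82). *Cdk1* was nearest to *Map1lc3a* (0.83) and *Ints11* (0.82), *Fbxo43* to *Tgds* (0.80) and *Rapgef5* (0.78), and *Wee1* to *Fam208b* (0.70) and *Zfp654* (0.69). For *Cdc25a* and *Cdc25b* the highest r was 0.60 and 0.61, with genes of few reads. *Mos* had too few reads to be included. Between members, *Wee2* and *Fbxo43* had an r of 0.63 over all embryos and 0.38 within group and litter, and *Wee1* and *Wee2* 0.31 and 0.03.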

How the data were processed

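Per the labels and the study's methods, single two-cell embryos were read by RNA-seq on mRNA captured on oligo-dT beads. The authors trimmed reads (Trim Galore 0.6.5, cutadapt 2.3), mapped them to GRCm38 (HISAT2 2.1.0), kept MAPQ of at least 20 and deposited log2 RPM per gene from SeqMonk, without strand. A gene without reads holds the value of 0.9 read, and reads were recovered from this step (99.9992% of non-zero values within 0.05 read of a whole number).

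Values were raised to a common floor of 1.86, genes with a mean deposited log2 RPM of at least 0 were tested with limma 3.58.1 (R 4.3.3, lmFit, eBayes with trend), and calls are at an adjusted p of 0.05. HOM and HET2 embryos, and their litters, were compared in 1 model of litter and genotype over 15 embryos. The WT and HET1 litters were compared in a model of group by litter over 44 embryos. Ratios were tested by permutation of embryos (100000 resamples, or exactly for HET2) in scipy 1.17.1. Embryos were treated as replicates, and p-values measure the spread between embryos, which share litters. About 3 reads are needed to tell a gene from 0, counting error only. The tests were checked on simulated data. That check is no measure of false or missed calls in these embryos, which share litters.

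The members and lists were chosen with earlier results of these data known. Genes named beyond the members are *Dppa2* and *Dppa4*, markers without a read, opposite-strand partners, and the 2 genes with the highest correlation to most members. For each M-phase list and the oocyte markers the genes called are named (all where 3 or fewer, otherwise the 3 with the smallest adjusted p). The two-cell markers called are counted only. Alternatives covered the floor, pseudocount, filter, centring, depth, voom, weights, litter handling, and leaving out litters or embryos.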

Additional observations from a re-analysis of the deposited data

Results flagged for a closer look

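Of 55 sets of embryos examined for the members (HET2, HOM and the WT and HET1 litters), 5 held an embryo farther from the rest than Dixon's limit allows, and chance flags about 1 in 20 sets. In 2 further sets, both of *Mos*, all embryos but 1 lay at the floor of 1.86 and no such limit applies. The lowest *Cdk1* value of WT litter 1 was 7.36, next to 8.01. In the same litter 1 embryo was lowest for both *Cdc25a*, at 1.86 with no read, and *Cdc25c*, at 5.57. The lowest *Fbxo43* value of WT litter 2 was 1.86, from 1 read, where the next embryo stood at 5.94. That embryo and the one low for *Cdc25a* and *Cdc25c* had reads in 9169 and 9403 genes, beside a WT median of 12247. The part of this in their values was not tested. Among HET2 embryos the lowest *Wee2* value was 5.64, next to 8.36, and it belongs to the single HET2 embryo of litter 2.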

How the results depend on the processing

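Of 88 recomputed counts of called members over the 7 comparisons, 85 stayed within 1.5 times of the reported count. The others were 2 in HET1 against WT without HET1 litter 1 (2339 of all genes in that fit), and 1 between the WT litters with log2 total reads as covariate (473) and by voom (903). *Wee2* kept its call between the HET1 litters (2.50 to 2.86) and between the litters of the cross with Dppa2/4+/- males (-2.56 to -2.44) under all 8 alternatives run, as did *Fbxo43* between the HET1 litters (1.72 to 2.102). Without HET1 litter 2, *Wee2* and *Fbxo43* in HET1 against WT turned to -0.36 and -0.25. In HOM, HET1 and HET2 against WT, a random effect for litter left 0 members called (2, 0 and 0 of all genes), as did litter means used as replicates (0 of all genes in each), so these fits say little about the members.

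For *Wee1* to *Wee2*, leaving out HET1 litter 1 gave -1.92 in HET1 (adjusted p = 0.00372) and leaving out HET1 litter 2 gave 0.0012. Leaving out WT litter 1 gave 0.39 in HOM, 0.081 in HET2 and -0.12 in HET1, where -1.02 was reported. Leaving out litter 1 of the cross with Dppa2/4+/- males gave 0.11 in HOM and 0.86 in HET2, and leaving out its litter 2 gave -1.98 in HOM (adjusted p = 0.0353). For *Cdc25a* to *Cdc25b*, HET1 turned to -0.14 without HET1 litter 1 and -0.17 without WT litter 2. HET2 turned to 0.50 without WT litter 1 and 1.45 without litter 1 of the cross with Dppa2/4+/- males, and HOM to -0.90 without its litter 2. The cause was not tested.

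Calls over all genes ranged more widely, from 0 to 249 in HOM (3 as reported), 0 to 4054 in HET1 (745), 0 to 114 in HET2 (5), 1 to 6 between HOM and HET2 (2), 169 to 903 between the WT litters (419), 2012 to 3038 between the HET1 litters (2721) and 386 to 1091 between the litters of the other cross (560).

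With the mating number as a replicate block, 0 members were called in HOM, HET1 and HET2 against WT, and 586 genes in HET1. HOM against HET2 gave 0 members with no replicate block as well. Differences between litter 2 and litter 1 correlated over genes at 0.40 for WT and HET1, -0.39 for WT and the cross with Dppa2/4+/- males, and -0.77 for HET1 and that cross, so the numbers do not pair the embryos. Depth limits *Mos* and *Cdc25b* most, with medians of 0 and 5 reads.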
